A study of Homo sapiens with 12 samples.

Results

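Type IV collagen is the network-forming collagen of basement membranes, and its 6 chains are encoded by COL4A1, COL4A2, COL4A3, COL4A4, COL4A5 and COL4A6. These 6 genes were taken by symbol from the 60617 genes counted in the files, and all 6 were among the 23041 genes that averaged at least 1 count in a library and entered the tests. The family was chosen by the counts of COL4A5 in Viperin and Control cells, in which it stood out, so the values of the members in that comparison are given as a description with no test. The libraries were mRNA-seq of 12Z cells, an immortalized human epithelial line from ectopic endometriosis, made to examine how Viperin OE and insulin change the transcriptome. Viperin is the interferon-inducible radical SAM enzyme encoded by RSAD2.

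There were 4 groups of 3 libraries. Viperin + Insulin cells carried a pCAG plasmid with Viperin and received 100 nM insulin. Viperin cells carried that plasmid and received vehicle. Insulin cells carried the pCAG empty vector and received 100 nM insulin, and Control cells carried the empty vector and received vehicle. All cells were transfected with FuGene HD, were serum-starved for 4 h before insulin or vehicle, and gave RNA 24 h later. One account in the labels names a pBabe empty vector. The plasmids were transfected transiently into a single line, so every value is an average over cells that took up the plasmid and cells that did not. The methods describe the replicates as independent experiments.

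Collagen IV chains assemble in the endoplasmic reticulum as heterotrimers. The COL4A1 and COL4A2 chains form the trimer found in nearly all basement membranes. The COL4A3, COL4A4 and COL4A5 chains form the trimer of the glomerular basement membrane. COL4A5 with COL4A6 forms a trimer of basement membranes in skin, in other epithelia and in smooth muscle. Trimers are secreted and joined through their C-terminal noncollagenous domains, in which peroxidasin forms a sulfilimine bond, into a sheet that carries laminin, nidogen and perlecan. In the endometrium this sheet lies under the glandular epithelium, and around stromal cells that undergo decidualization.

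The genes lie as 3 pairs on 3 chromosomes, each pair transcribed in opposite directions from neighbouring start sites. Positions are those of GENCODE release 44 on GRCh38, and identifiers are as the files give them, with a version suffix that differs from release 44 for COL4A3, COL4A4, COL4A5 and COL4A6. COL4A1 (ENSG00000187498.16) spans positions 110148963 to 110307157 of chromosome 13 on the minus strand, and COL4A2 (ENSG00000134871.19) spans 110305812 to 110513209 on the plus strand. COL4A4 (ENSG00000081052.13) spans 227002714 to 227164453 of chromosome 2 on the minus strand and COL4A3 (ENSG00000169031.20) spans 227164624 to 227314792 on the plus strand. COL4A6 (ENSG00000197565.16) spans 108155607 to 108439497 of chromosome X on the minus strand, and COL4A5 (ENSG00000188153.13) spans 108439838 to 108697545 on the plus strand. Between the RefSeq start sites there were 126 bases for COL4A1 and COL4A2, 418 bases for COL4A4 and COL4A3, and 379 bases for COL4A6 and COL4A5. A second RefSeq start of COL4A6 lay 1416 bases from that of COL4A5.

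The promoter stretches of COL4A1 with COL4A2 and of COL4A6 with COL4A5 are shown because these pairs carried nearly all of the counts and differed in their insulin values. Both are RefSeq sequence of GRCh38.p14 on the plus strand, read 5′ to 3′. Capitals mark CCAAT (the motif of NF-Y, ATTGG on the other strand) and GGGCGG (the GC box of Sp factors, CCGCCC on the other strand). The first is the whole stretch between the start of COL4A1 at its left end and that of COL4A2 at its right end, and the second is the part of the COL4A6 and COL4A5 stretch that lies next to the start of COL4A5.
between COL4A1 and COL4A2, chr13:110307158-110307283: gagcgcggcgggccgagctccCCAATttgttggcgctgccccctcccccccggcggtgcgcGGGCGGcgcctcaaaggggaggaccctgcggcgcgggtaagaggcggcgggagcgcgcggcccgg
before COL4A5, chrX:108439588-108439837: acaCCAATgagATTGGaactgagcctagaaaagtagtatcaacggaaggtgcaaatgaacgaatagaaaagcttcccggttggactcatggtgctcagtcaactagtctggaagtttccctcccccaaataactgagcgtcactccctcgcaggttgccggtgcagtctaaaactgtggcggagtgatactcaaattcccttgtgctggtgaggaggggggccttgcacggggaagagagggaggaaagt

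The COL4A1 and COL4A2 stretch was 80.2% G or C and held 1 CCAAT and 1 GGGCGG. The stretch before COL4A5 was 51.2% G or C and held 2 CCAAT and no GGGCGG. Over windows of 300 bases, from 250 before a start to 50 after it, 34.6% of the 35114 human promoters in the RefSeq table held CCAAT and 45.0% held GGGCGG on either strand. In these windows COL4A6 held 3 CCAAT at its main start and COL4A3 and COL4A4 held none. TATAAA, the TATA box, was in none of the members' windows and in 11.5% of all windows. TGTTTAC, the core of the forkhead motif, was likewise in none and in 3.42% of all. These matches describe the letters of the windows only.

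The libraries held 25979022 to 46889002 counts assigned to genes. RSAD2 was at 462 to 609 CPM (counts relative to the TMM-scaled library size) in Viperin + Insulin cells, 384 to 665 CPM in Viperin cells, 3.01 to 5.19 CPM in Insulin cells and 2.28 to 3.48 CPM in Control cells, as the labels have it. Control replicate 1 and Viperin replicate 3 stood apart in reads that mapped to more than 1 place (13.9% and 12.1% of the reads). Without them together, 4% of all genes passed in Viperin against Control cells (2.29% with them), and the values of the members and of the list counts that moved without them are given beside those results or with the other settings. The share of mitochondrial counts was 4.28% to 4.52% in Viperin + Insulin cells, 4.81% to 5.34% in Viperin cells, 5.14% to 5.18% in Insulin cells and 5.59% to 6.64% in Control cells. Of the epithelial markers, KRT8, KRT18 and KRT19 averaged 1290, 824 and 464 CPM over all libraries, whereas CDH1 averaged 1.20 CPM and EPCAM 0.43 CPM, so the defining adhesion markers of epithelium were nearly absent. Mesenchymal transcripts were high in every group. The summed level of 10 stromal and fibroblast markers was 6377 to 6659 CPM in Viperin + Insulin cells, 6487 to 6663 CPM in Viperin cells, 5787 to 5973 CPM in Insulin cells and 5595 to 6146 CPM in Control cells. It moved with the plasmid. In bulk RNA, fewer cells of a type and less RNA per cell cannot be told apart.

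12Z cells expressed the chains at very different levels. Per length of transcript, COL4A2 averaged 63.3 ± 4.86 TPM over the 12 libraries (SD), COL4A1 37.9 ± 5.03 TPM, COL4A5 31.0 ± 5.11 TPM and COL4A6 16.9 ± 2.25 TPM. The chains with the narrowest distribution in tissues were low, with COL4A4 at 1.24 ± 0.21 TPM and COL4A3 at 0.13 ± 0.038 TPM. The median of the 14819 protein-coding genes tested was 15.3 TPM. The order was COL4A2, COL4A1, COL4A5, COL4A6, COL4A4, COL4A3. Ranges over all libraries overlapped for the neighbours COL4A1 (28.7 to 44.7 TPM) and COL4A5 (25.0 to 40.5 TPM) and for no other neighbours. The chains of the ubiquitous trimer together made up most of the family's TPM, COL4A2 with 40.2% to 44.3% and COL4A1 with 22.6% to 27.7% of it in a library. COL4A5 gave 18.4% to 23.2%, COL4A6 10.2% to 12.3%, and COL4A3 at most 0.129%. COL4A3 rested on 8 to 19 counts per library and COL4A4 on 98 to 194, against 1010 to 14328 for the other 4, so small differences of COL4A3 and COL4A4 could not be resolved at this depth. Counts on the strand opposite to COL4A1, COL4A2, COL4A5 and COL4A6 were at most 0.743% of those on their own strand. At COL4A3 they were 1 to 13 counts, and its overlapping antisense gene MFF-DT had 12 to 39 counts.

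**Figure D1:**
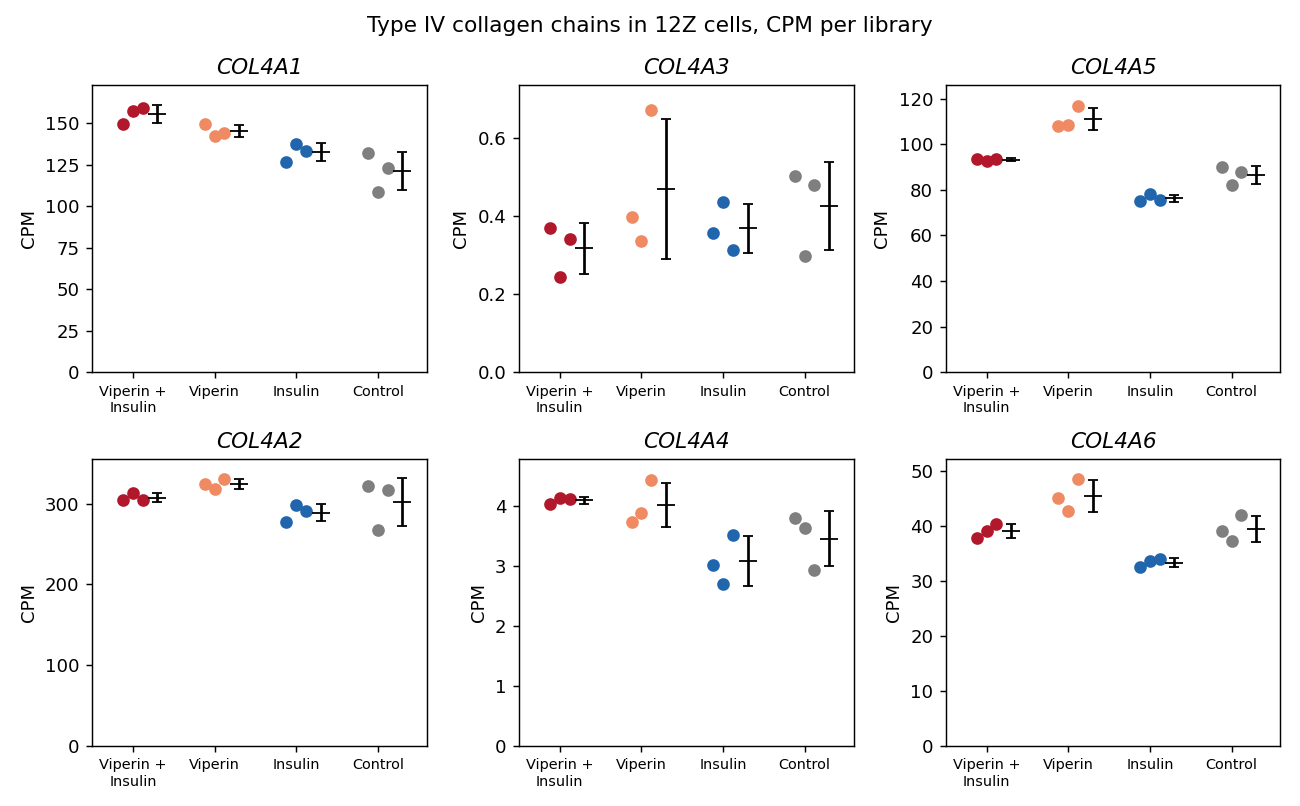
CPM of each type IV collagen chain in the 12 libraries, with one panel per gene, a point per library, and a bar for the mean ± SD of 3 libraries beside each group. COL4A5 was at 108 to 117 CPM in the Viperin libraries and at 75.2 to 78.2 CPM in the Insulin libraries, the highest and the lowest group for this gene, and COL4A3 stayed under 1 CPM in all 12.

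COL4A5, the chain mutated in X-linked Alport syndrome, was the member with the clearest differences between groups. Its level was 93.8, 92.7 and 93.7 CPM in Viperin + Insulin cells, 108, 109 and 117 CPM in Viperin cells, 75.2, 78.2 and 75.5 CPM in Insulin cells and 89.9, 82.3 and 88.1 CPM in Control cells. No library of Viperin + Insulin cells overlapped with any of Viperin, Insulin or Control cells. Viperin cells were above all other groups and Insulin cells below all others.

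COL4A6, its partner on the X chromosome and in the trimer, had a level of 37.8, 39.1 and 40.3 CPM in Viperin + Insulin cells, 45.1, 42.7 and 48.4 CPM in Viperin cells, 32.4, 33.5 and 33.9 CPM in Insulin cells and 39.0, 37.3 and 41.9 CPM in Control cells. The highest and the lowest group were again Viperin and Insulin cells, and Viperin + Insulin cells overlapped with Control cells.

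COL4A1, the chain present as a pair in the ubiquitous trimer, had a level of 149, 157 and 160 CPM in Viperin + Insulin cells, 150, 142 and 144 CPM in Viperin cells, 127, 138 and 133 CPM in Insulin cells and 132, 109 and 122.9 CPM in Control cells. The 6 libraries with the Viperin plasmid lay above the 6 with the empty vector, as for COL4A5 and for no other chain. The share of all genes that separate in this way was not counted. These libraries include those of Viperin and Control cells, by which the family was chosen. For COL4A1, Viperin + Insulin cells, not Viperin cells, had the highest mean. COL4A2, which gives the remaining chain of that trimer, was at 304, 313 and 304 CPM in Viperin + Insulin cells, 325, 318 and 330 CPM in Viperin cells, 277, 298 and 291 CPM in Insulin cells and 322, 267 and 316 CPM in Control cells. Its Control libraries spread widely, from replicate 2, the lowest of all 12 libraries, to replicate 1, above all libraries with insulin.

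COL4A4 was at 4.02, 4.13 and 4.12 CPM in Viperin + Insulin cells, 3.73, 3.87 and 4.42 CPM in Viperin cells, 3.01, 2.70 and 3.52 CPM in Insulin cells and 3.79, 3.63 and 2.93 CPM in Control cells. COL4A3, the chain that carries the Goodpasture antigen, was at 0.24 to 0.37 CPM in Viperin + Insulin cells, 0.34 to 0.67 CPM in Viperin cells, 0.31 to 0.44 CPM in Insulin cells and 0.30 to 0.50 CPM in Control cells, which overlapped throughout.

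Viperin cells had higher mean levels of all 6 chains than Control cells, with a median log2 fold change of 0.21 over the members, beside 0.0007 over all 23041 genes. COL4A5 had a log2 fold change of 0.36 (SE 0.04), COL4A1 0.26 (SE 0.05), COL4A4 0.22 (SE 0.14), COL4A6 0.20 (SE 0.05), COL4A3 0.11 (SE 0.40) and COL4A2 0.10 (SE 0.05). The libraries of both groups did not overlap for COL4A1, COL4A5 and COL4A6, and 15.8% of all genes tested did not overlap. This is the comparison in which the family was noticed. Over all genes 2.29% passed the edgeR test at an adjusted p under 0.05 (1.25% higher and 1.04% lower), and 0.304% at 0.001. The median over the members was 0.15 to 0.26 when each library was left out in turn. Without Control replicate 2, COL4A2 had a log2 fold change of 0.02. COL4A3 turned direction without single libraries, from -0.20 without Viperin replicate 3 to 0.29, and was also negative without Control replicate 2 and with unstranded counts.

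The effect of the plasmid was measured again in libraries not used in that choice, Viperin + Insulin against Insulin cells, and here it was tested. The members were, however, chosen with earlier results of these data known, so these tests may not be independent of those results. COL4A5, COL4A6 and COL4A1 rose, 3 of the 6 members, and none fell, beside 3.08% of all genes called in either direction, 2.09% called higher and 0.99% called lower (edgeR quasi-likelihood test, Benjamini-Hochberg adjusted over 23041 genes). COL4A5 averaged 93.4 ± 0.62 CPM in Viperin + Insulin cells and 76.3 ± 1.63 CPM in Insulin cells (SD, n = 3 each). This was 22.4% higher, with a log2 fold change of 0.29 (SE 0.04, edgeR adjusted p = 1.5e-06), and it passed the test in all 21 alternative fits. COL4A1 averaged 155 ± 5.37 CPM in Viperin + Insulin cells and 133 ± 5.47 CPM in Insulin cells, 17.2% higher, with a log2 fold change of 0.23 (SE 0.05, edgeR adjusted p = 0.0027), and likewise passed in all 21. COL4A6 averaged 39.1 ± 1.23 CPM in Viperin + Insulin cells and 33.3 ± 0.77 CPM in Insulin cells, 17.4% higher, with a log2 fold change of 0.23 (SE 0.05, edgeR adjusted p = 0.0042). The call of COL4A6 was lost without Viperin + Insulin replicate 3 (log2 fold change 0.20, edgeR adjusted p = 0.056). At the study's threshold of 0.001 COL4A5 was called, beside 0.473% of all genes.

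COL4A4, COL4A2 and COL4A3 did not pass in that comparison. COL4A4 had a log2 fold change of 0.41 (SE 0.14, edgeR adjusted p = 0.083), with all 3 Viperin + Insulin libraries above all 3 Insulin libraries. COL4A2 had a log2 fold change of 0.09 (95% interval -0.0039 to 0.18, edgeR adjusted p = 0.42), and its groups did not overlap either. COL4A3 had a log2 fold change of -0.20 (95% interval -0.99 to 0.59). With only these 6 libraries in the fit, COL4A2 (edgeR adjusted p = 0.0496) and COL4A4 (edgeR adjusted p = 0.039) passed as well, 5 members in all, beside 7.64% of all genes called in that fit. The median over the 6 members was 0.23, beside 0.0048 over all genes, and 5 of the 6 members had non-overlapping groups, against 21.7% of all genes.

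Both chains encoded on the X chromosome were lower with insulin. The vehicle libraries of both comparisons with insulin were those by which the family was chosen, for higher COL4A5 in Viperin than in Control cells. In Insulin against Control cells, 2 of the 6 members passed the test, both lower, beside 5.49% of all genes called, 2.96% lower and 2.53% higher. Their libraries did not overlap between the groups, as for 20.2% of all genes. COL4A6 averaged 33.3 ± 0.77 CPM in Insulin cells and 39.4 ± 2.35 CPM in Control cells, a log2 fold change of -0.25 (SE 0.05, edgeR adjusted p = 0.0016). COL4A5 averaged 76.3 ± 1.63 CPM in Insulin cells and 86.8 ± 3.96 CPM in Control cells, a log2 fold change of -0.18 (SE 0.04, edgeR adjusted p = 0.0024). Both calls held in all 21 alternative fits, and neither met the study's stricter threshold of 0.001, which 1.18% of all genes met. COL4A1 had a log2 fold change of 0.13 (95% interval 0.037 to 0.22, edgeR adjusted p = 0.11), and COL4A2 one of -0.06 (95% interval -0.16 to 0.029, edgeR adjusted p = 0.57). Leaving out 1 Control library decided both: without Control replicate 1, COL4A1 passed as higher (log2 fold change 0.19, edgeR adjusted p = 0.0014), and without Control replicate 2, COL4A2 passed as lower (log2 fold change -0.15, edgeR adjusted p = 0.015). COL4A1 also passed without Control replicate 1 and Viperin replicate 3 together (log2 fold change 0.20, edgeR adjusted p = 5.8e-04) and with no filter on low counts (log2 fold change 0.14, edgeR adjusted p = 0.021). COL4A4 (log2 fold change -0.16, SE 0.15) and COL4A3 (-0.20, SE 0.40) did not pass.

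COL4A5 and COL4A6 were also lower with insulin in cells with the Viperin plasmid. Here the choice of the family, made on high COL4A5 in these Viperin libraries, favoured a lower value with insulin, so the tests of the members in this comparison are not independent of the choice. COL4A5 averaged 93.4 ± 0.62 CPM in Viperin + Insulin cells and 111 ± 4.93 CPM in Viperin cells, with a log2 fold change of -0.25 (SE 0.04, edgeR adjusted p = 9.0e-06), and this call held in all 21 alternative fits. COL4A6 averaged 39.1 ± 1.23 CPM in Viperin + Insulin cells and 45.4 ± 2.85 CPM in Viperin cells, with a log2 fold change of -0.21 (SE 0.05, edgeR adjusted p = 0.0053). These 2 of 6 members stood beside 4.56% of all genes called, 2.39% lower and 2.17% higher. COL4A5 was also called at 0.001, as were 1.11% of all genes, and the groups did not overlap for COL4A2, COL4A5 and COL4A6, as for 21.1% of all genes. The call of COL4A6 was lost without Viperin replicate 3 (log2 fold change -0.17, edgeR adjusted p = 0.076) and without Viperin + Insulin replicate 1 (log2 fold change -0.20, edgeR adjusted p = 0.052). COL4A1 had a log2 fold change of 0.10 (95% interval 0.0052 to 0.19, edgeR adjusted p = 0.31) and COL4A2 one of -0.08 (95% interval -0.17 to 0.016, edgeR adjusted p = 0.49). COL4A3 (log2 fold change -0.51, SE 0.39) and COL4A4 (0.04, SE 0.13) did not pass. This comparison shares no library with that of Insulin and Control cells, although both came from one fit.

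**Figure D2:**
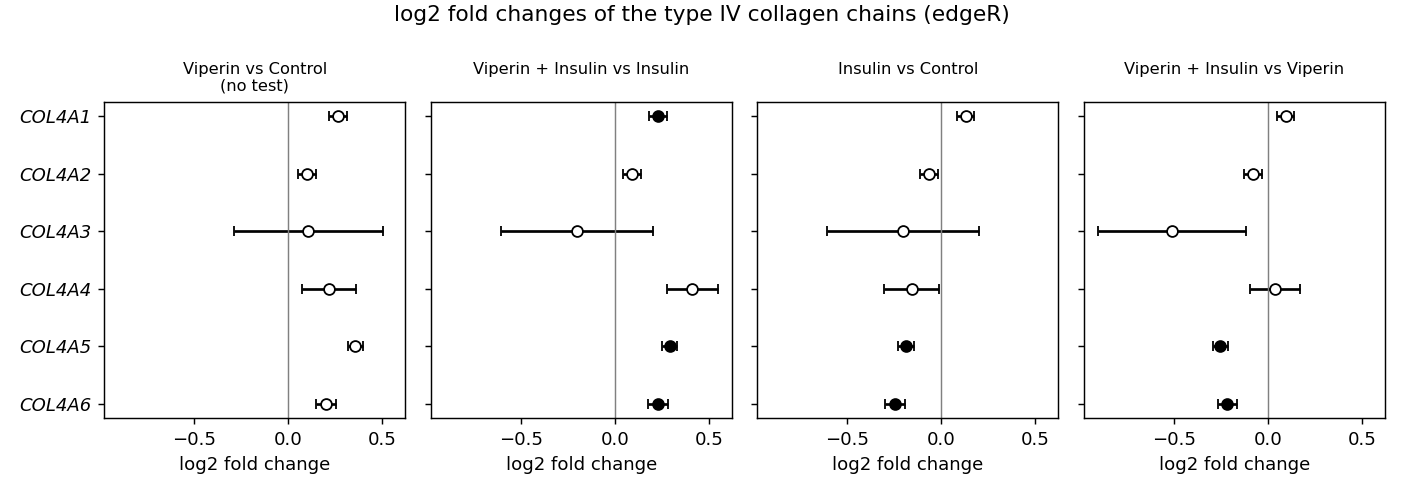
log2 fold change of each chain in 4 comparisons, with bars of ± 1 standard error. Filled points passed the edgeR test at an adjusted p under 0.05, and Viperin against Control carries no test and is drawn open. In both comparisons of insulin with vehicle, the filled points of COL4A5 and COL4A6 come from tests not independent of the choice of the family. The vehicle libraries of these comparisons were those by which the family was chosen. COL4A5 and COL4A6 lie right of zero in the comparisons of plasmids and left of zero in the comparisons of insulin with vehicle, whereas COL4A1 lies right of zero in all 4, where it passed only in Viperin + Insulin against Insulin.

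The insulin response was not shown to differ between the plasmids. Of the 6 members, 0 passed the edgeR test of the difference of the insulin responses, beside 0% of all genes. Before adjustment, 1297 of the 23041 genes had a p below 0.05 by edgeR. DESeq2 and limma-voom also called 0 genes, and gave 865 and 1343 genes below 0.05 before adjustment. When each library was left out in turn, 0 to 24 genes passed, with 0 in 5 of the 12 fits, 24 without Insulin replicate 1, 15 without Control replicate 1, 14 without Control replicate 3 or Viperin replicate 3, 12 without Control replicate 2, 10 without Viperin + Insulin replicate 2 and 4 without Viperin replicate 1. Without Control replicate 1 and Viperin replicate 3 together 34 passed, and no member was among those called in any of these fits. The Viperin and Control libraries, by which the family was chosen, enter this difference. That choice, made on higher COL4A5 in Viperin than in Control cells, favoured a negative difference for COL4A5. The tests of the members here are therefore not independent of the choice. The difference was -0.07 on the log2 scale for COL4A5 (95% interval -0.18 to 0.049), 0.03 for COL4A6 (-0.12 to 0.18), -0.03 for COL4A1 (-0.16 to 0.096) and -0.01 for COL4A2 (-0.14 to 0.12). For COL4A4 (0.20, 95% interval -0.19 to 0.58) and COL4A3 (-0.31, 95% interval -1.42 to 0.80) the intervals were wide.

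The ratio of the counts of paired chains was followed within each library, where it does not depend on scaling to depth. The COL4A2:COL4A1 ratio was 2.04, 1.99 and 1.91 in Viperin + Insulin cells, 2.17, 2.24 and 2.29 in Viperin cells, 2.18, 2.17 and 2.18 in Insulin cells and 2.44, 2.46 and 2.57 in Control cells. It was lower with insulin than with vehicle under either plasmid, with no overlap, although COL4A1 and COL4A2 themselves did not pass the test for insulin. The difference between insulin and vehicle was -0.18 on the log2 scale, with p = 0.005 by an exact two-sided permutation test within plasmids. This is the smallest p that the 400 splits allow. The adjusted p of 0.0075 over 3 ratios rests in part on the p of COL4A5:COL4A1. That ratio is tied to the choice of the family, so this adjusted p is not independent of the choice. Per length of transcript the ratio was 1.45 to 1.55 in Viperin + Insulin cells, 1.65 to 1.74 in Viperin cells, 1.65 to 1.66 in Insulin cells and 1.86 to 1.96 in Control cells.

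The COL4A6:COL4A5 ratio averaged 0.418 ± 0.014 in Viperin + Insulin cells, 0.408 ± 0.013 in Viperin cells, 0.436 ± 0.011 in Insulin cells and 0.454 ± 0.021 in Control cells. Its difference between insulin and vehicle was -0.01 on the log2 scale (exact permutation p = 0.725, adjusted p = 0.725), and the groups overlapped under either plasmid. The COL4A5:COL4A1 ratio averaged 0.601 ± 0.023 in Viperin + Insulin cells, 0.766 ± 0.044 in Viperin cells, 0.576 ± 0.015 in Insulin cells and 0.718 ± 0.038 in Control cells. These chains belong to different trimers, and the ratio sets COL4A5, by which the family was chosen, against COL4A1. It is therefore given as a description without its p, although that p entered the adjustment over the 3 ratios. It was 0.33 lower on the log2 scale with insulin, with no overlap under either plasmid. Leaving out each library in turn gave -0.35 to -0.31 for COL4A5:COL4A1 and -0.19 to -0.17 for COL4A2:COL4A1.

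**Figure D3:**
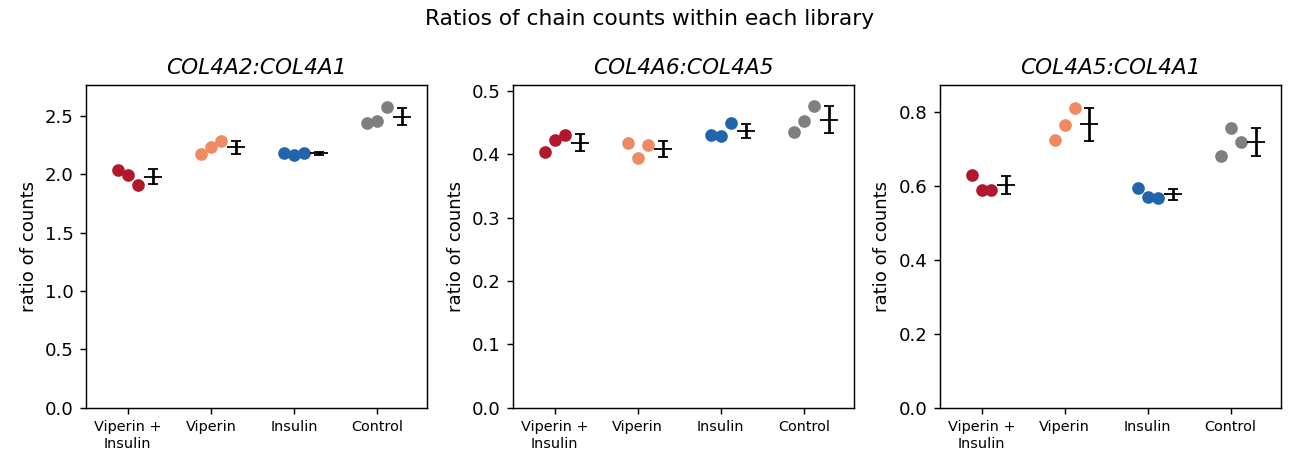
Ratios of the counts of 2 chains in each of the 12 libraries, with one panel per ratio, a point per library and a bar for the mean ± SD of 3 libraries. The COL4A2:COL4A1 and COL4A5:COL4A1 ratios sit lower in the groups with insulin than in the vehicle groups with the same plasmid, and COL4A6:COL4A5 stays between 0.393 and 0.476 in all libraries.

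The summed CPM of the 6 chains was 600 ± 9.01 in Viperin + Insulin cells, 631 ± 14.2 in Viperin cells, 534 ± 18.3 in Insulin cells and 553 ± 47.0 in Control cells (SD, n = 3 each). Control cells had the widest spread of the 4 groups.

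The genes whose levels followed each chain most closely over the 12 libraries differed between the chains. By Pearson's r of log2 CPM among the 9361 other genes with at least 10 CPM on average, COL4A1 was nearest to THBS2 (r = 0.98), which encodes a matricellular thrombospondin, and to COL5A2 and COL5A1 (both r = 0.97), the chains of fibrillar collagen V. COL4A5 was nearest to PKD1 (0.98), TIA1 (0.98) and GANAB (0.97), and COL4A6 to SH3PXD2A (0.96), MYLK (0.96) and PRKCA (0.95). COL4A6 ranked 16 among the 9361 genes in likeness to COL4A5 (r = 0.94), whereas COL4A2 ranked 915 in likeness to COL4A1 (r = 0.60). COL4A2 was nearest to ASS1 (0.95), HERPUD1 (0.92) and C1R (0.91). These values describe 12 libraries of 4 groups that share the effects of plasmid and insulin.

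The other genes of basement membrane assembly were followed by lists written from general knowledge, but with earlier results of these data known. The counts of called list genes may therefore not be independent of those results. Of 32 further basement membrane components, 28 were tested. In Viperin + Insulin against Insulin cells 12 of the 28 rose and none fell, beside 2.09% of all genes called higher and 0.99% called lower. The median log2 fold change of the 28 was 0.20. LAMB2, a laminin β chain, averaged 64.9 ± 1.99 CPM in Viperin + Insulin cells and 53.6 ± 2.24 CPM in Insulin cells, a log2 fold change of 0.27 (edgeR adjusted p = 5.6e-05). LAMB1, the β chain of most embryonic laminins, had 0.21 (edgeR adjusted p = 8.3e-05), LAMA3, the α chain of epithelial laminins, 0.39 (edgeR adjusted p = 1.5e-04), and COL18A1, the source of endostatin, 0.27 (edgeR adjusted p = 8.1e-04). FBLN2, FBLN1, NTN4, TINAGL1, HSPG2, LAMC1, PAPLN and NID1 were the others, with log2 fold changes of 0.14 to 0.45. The calls of LAMB2, LAMB1, LAMA3, COL18A1, FBLN2 and FBLN1 were kept in all 12 fits that left out a library. The count was 6 without Insulin replicate 2, 7 without Insulin replicate 3 and 7 without Viperin + Insulin replicate 3. In Viperin against Control cells 7 of the 28 rose and none fell, beside 1.25% of all genes called higher and 1.04% called lower. FBLN2 had a log2 fold change of 0.39, FBLN1 0.29, NID1 0.22 and LAMB1 0.19 there. That count was 14 without Control replicate 1, 4 without Viperin replicate 1, 3 without Control replicate 2 or without Viperin replicate 3, 2 without Control replicate 3, and 12 without Control replicate 1 and Viperin replicate 3 together.

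With insulin, 5 of the 28 fell in Insulin against Control cells and 3 of the 28 fell in Viperin + Insulin against Viperin cells, and none rose in either, beside 2.96% and 2.39% of all genes called lower. HSPG2, which encodes the heparan sulfate proteoglycan perlecan, had a log2 fold change of -0.24 in Insulin against Control cells (edgeR adjusted p = 0.0027) and of -0.17 in Viperin + Insulin against Viperin cells (edgeR adjusted p = 0.048). FBLN1, a fibulin, had -0.30 in both (edgeR adjusted p = 0.0014 and 5.4e-04). LAMA4, the α chain of mesenchymal and vascular laminins, had -0.19 and -0.28. LAMB2 (-0.22) and LAMA3 (-0.24) passed in Insulin against Control cells. FBLN1 kept its call in both comparisons without any 1 library, as did HSPG2 and LAMB2 in Insulin against Control cells and LAMA4 in Viperin + Insulin against Viperin cells. In Insulin against Control cells the call of LAMA4 was lost in 7 of the 12 fits that left out a library, and that of LAMA3 without Control replicate 1 or 3 or Insulin replicate 2 or 3. In Viperin + Insulin against Viperin cells the call of HSPG2 was lost in 6 of the 12 such fits. That count of 5 was 3 without Control replicate 3, Insulin replicate 2 or Insulin replicate 3.

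The collagen folding and secretion genes that passed were mostly higher with insulin. Of 26 tested, 3 rose and none fell in Insulin against Control cells, beside 2.53% of all genes called higher and 2.96% called lower. SPARC, a chaperone-like collagen binding glycoprotein, averaged 1888 ± 32.2 CPM in Insulin cells and 1519 ± 129 CPM in Control cells, a log2 fold change of 0.31 (edgeR adjusted p = 2.3e-06). SERPINH1, the collagen chaperone HSP47, had 0.21 (edgeR adjusted p = 1.8e-05) and COLGALT1, a collagen galactosyltransferase, 0.15 (edgeR adjusted p = 0.0044). The calls of SPARC and SERPINH1 were kept without any 1 library, COLGALT1 lost its call without Insulin replicate 2, and the count was 5 without Control replicate 1 and 6 without Control replicate 1 and Viperin replicate 3 together. In Viperin + Insulin against Viperin cells SPARC (0.27), SERPINH1 (0.20) and FKBP14 (0.21), a prolyl isomerase of the endoplasmic reticulum, rose and FKBP10 (-0.15), another such isomerase, fell, beside 2.17% of all genes called higher and 2.39% called lower. With the plasmid, SPARC, P4HA2, FKBP14 and P3H2 rose in Viperin + Insulin against Insulin cells (4 of 26, none lower, beside 2.09% of all genes called higher), of which P4HA2 encodes a prolyl 4-hydroxylase subunit. That count was 2 without Insulin replicate 2. In Viperin against Control cells 5 of 26 rose and none fell, beside 1.25% of all genes called higher, and the count lay between 2 and 9 when each library was left out, with 9 without Control replicate 1, 3 without Control replicate 2, Viperin replicate 1 or Viperin replicate 2, and 2 without Control replicate 3 or Viperin replicate 3.

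Of 8 genes for cross-linking of the network, PXDN, which encodes peroxidasin, and LOXL2, a lysyl oxidase that acts on collagen IV, passed. In Viperin + Insulin against Insulin cells 2 of the 8 rose, beside 2.09% of all genes called higher. There was 1 of 8 higher in Viperin against Control, Insulin against Control and Viperin + Insulin against Viperin cells. The shares of all genes called higher there were 1.25%, 2.53% and 2.17%. PXDN averaged 304 ± 7.65 CPM in Viperin + Insulin cells and 256 ± 1.68 CPM in Insulin cells, a log2 fold change of 0.25 (edgeR adjusted p = 1.2e-05). It averaged 326 ± 7.72 CPM in Viperin cells and 277 ± 21.4 CPM in Control cells, with a log2 fold change of 0.23 (edgeR adjusted p = 1.1e-04), and kept both calls without any 1 library. In Viperin against Control cells 3 of the 8 passed without Control replicate 1, and likewise with Viperin replicate 3 left out as well. LOXL2 had a log2 fold change of 0.17 in Viperin + Insulin against Insulin cells (edgeR adjusted p = 0.021), 0.22 in Viperin + Insulin against Viperin cells (edgeR adjusted p = 0.0012) and 0.14 in Insulin against Control cells (edgeR adjusted p = 0.045). The call in Viperin + Insulin against Viperin cells was kept in all 12 fits that left out a library. That in Insulin against Control cells was lost without Control replicate 2 or 3, any 1 of the Insulin replicates, Viperin + Insulin replicate 2 or Viperin replicate 3. That in Viperin + Insulin against Insulin cells was lost without Control replicate 3, Insulin replicate 1 or 3, or any 1 of the Viperin + Insulin replicates.

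Among 15 receptors for collagen IV and basement membrane, 5 fell and none rose in Insulin against Control cells, and 2 fell and none rose in Viperin + Insulin against Viperin cells, beside 2.96% and 2.39% of all genes called lower. CD44, the hyaluronan receptor, averaged 1293 ± 95.8 CPM in Insulin cells and 1554 ± 33.6 CPM in Control cells, a log2 fold change of -0.26 (edgeR adjusted p = 1.1e-06). ITGB4, the integrin β chain of hemidesmosomes, had -0.33 in Insulin against Control cells (edgeR adjusted p = 4.1e-04). In Viperin + Insulin against Viperin cells CD44 had -0.30 (edgeR adjusted p = 6.3e-08) and ITGB4 -0.35 (edgeR adjusted p = 8.3e-05). BCAM, the laminin receptor Lutheran, DDR2, a collagen receptor kinase, and ITGA1, the α chain of a collagen IV binding integrin, were the others in Insulin against Control cells. That count of 5 was 3 without Insulin replicate 2 or Insulin replicate 3, and the count of 2 was 4 without Viperin replicate 2. ITGB1, the shared β chain of the collagen binding integrins, had a log2 fold change of 0.13 in Viperin + Insulin against Insulin cells (edgeR adjusted p = 0.011) and of 0.18 in Viperin against Control cells (edgeR adjusted p = 3.4e-04), where 3 and 2 of the 15 rose, beside 2.09% and 1.25% of all genes called higher. When single libraries were left out, the count of Viperin + Insulin against Insulin cells was 0 to 4, with 0 without Insulin replicate 2 and 1 without Insulin replicate 3 or without any 1 of the Viperin + Insulin replicates. That of Viperin against Control cells was 1 to 4, with 4 without Control replicate 1 and 1 without Control replicate 2 or 3, Viperin replicate 1 or 3, Insulin replicate 3 or Viperin + Insulin replicate 2.

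Of 15 proteases and inhibitors that act on collagen IV, MMP2, a type IV collagenase, averaged 15.9 ± 1.18 CPM in Viperin + Insulin cells and 22.4 ± 1.5 CPM in Viperin cells, with a log2 fold change of -0.49 (edgeR adjusted p = 7.1e-07). It averaged 22.4 ± 1.5 CPM in Viperin cells and 16.8 ± 1.07 CPM in Control cells, with a log2 fold change of 0.41 (edgeR adjusted p = 2.2e-04). Both calls were kept without any 1 library. MMP2 was the 1 gene of the 15 called in Viperin against Control cells, beside 1.25% of all genes called higher. That count was 4 without Control replicate 1, 2 without Insulin replicate 1 or 2, and 3 without Control replicate 1 and Viperin replicate 3 together. CTSB (-0.21), cathepsin B, and MMP14 (-0.15), the membrane-bound activator of MMP2, fell with MMP2 in Viperin + Insulin against Viperin cells. These were 3 of the 15, beside 2.39% of all genes called lower. CTSB (-0.15), TIMP2 (-0.12), an inhibitor of MMP2, and MMP14 (-0.14) fell in Insulin against Control cells, beside 2.96% of all genes called lower. There the count of 3 was 1 without Insulin replicate 2 and 0 without Insulin replicate 3. Of 14 genes of the TGF-β pathway, which drives collagen synthesis, SMAD3 (log2 fold change -0.13, edgeR adjusted p = 0.046) fell in Insulin against Control cells, and TGFBR2 (0.17, edgeR adjusted p = 0.024) rose in Viperin against Control cells. Each was the 1 gene of the 14 called in that direction, beside 2.96% of all genes called lower and 1.25% called higher. The call of TGFBR2 was lost without Control replicate 2 or Viperin replicate 3, and that of SMAD3 in 9 of the 12 fits that left out a library. In Viperin against Control cells the count of 1 was 2 without Control replicate 1, with or without Viperin replicate 3.

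**Figure D4:**
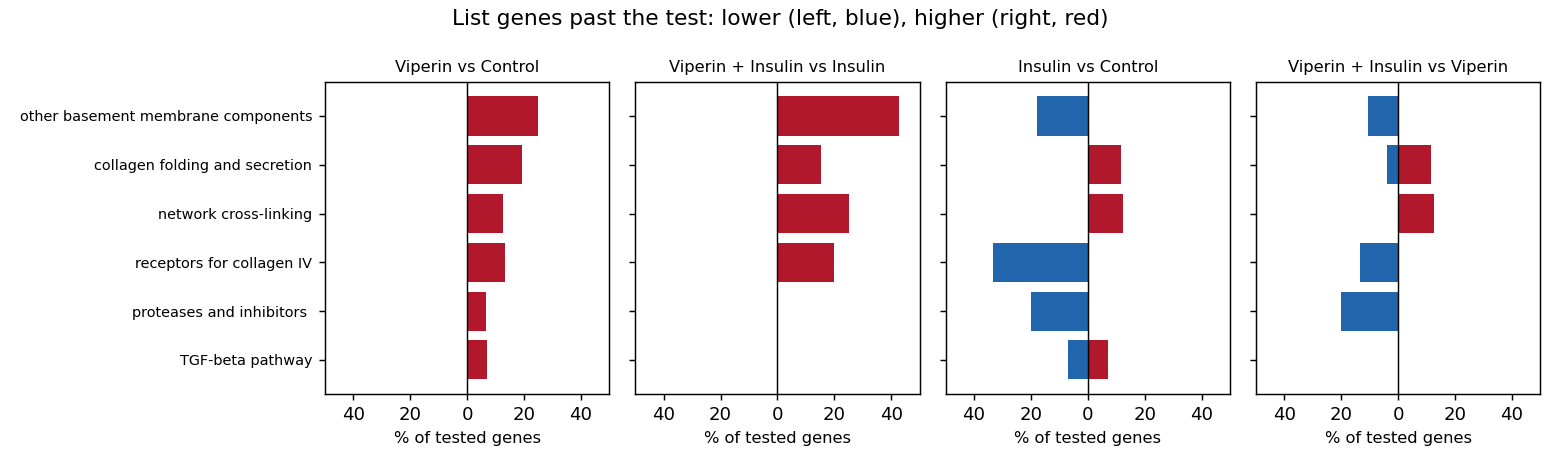
Percent of the tested genes of 6 lists that passed the edgeR test at an adjusted p under 0.05, with the lower genes as bars to the left and the higher genes as bars to the right, in 4 comparisons. The basement membrane list has its longest bar in Viperin + Insulin against Insulin, 12 of 28 genes higher, beside 2.09% of all genes. Its bars in both comparisons of insulin with vehicle are on the lower side, 5 and 3 of 28, beside 2.96% and 2.39% of all genes.

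Some stromal markers were called with the plasmid and with insulin, an endothelial marker with the plasmid, and epithelial markers with insulin. No pericyte, smooth muscle or leukocyte marker was called with all 12 libraries in the fit. The part of the markers in the results was not tested. Of 10 stromal and fibroblast markers, COL3A1 and COL1A2 rose in Viperin against Control cells, and PDGFRB, COL3A1 and COL1A2 rose and VIM fell in Viperin + Insulin against Insulin cells, with COL1A2 at 579 ± 21.0 CPM in Viperin + Insulin cells and 438 ± 18.1 CPM in Insulin cells. These stood beside 1.25% of all genes called higher in the former comparison, and 2.09% called higher and 0.99% called lower in the latter. The count of 2 in Viperin against Control cells was 7 without Control replicate 1, 4 without Control replicate 2, 0 without Control replicate 3, 1 without Viperin replicate 1 or 3, and 5 without Control replicate 1 and Viperin replicate 3 together. The count of 4 in Viperin + Insulin against Insulin cells was 7 without Control replicate 1 or 2, and 2 without Control replicate 3, Insulin replicate 2 or 3, or Viperin + Insulin replicate 1. PDGFRB, a receptor of platelet-derived growth factor, fell with insulin, with a log2 fold change of -0.31 in Insulin against Control cells (edgeR adjusted p = 1.1e-06) and of -0.20 in Viperin + Insulin against Viperin cells (edgeR adjusted p = 0.0021), and kept both calls without any 1 library. It was the 1 stromal marker of 10 called in each, beside 2.96% and 2.39% of all genes called lower. Of the 8 epithelial markers, MUC1, a mucin of the cell surface, fell in Insulin against Control cells (-0.37, edgeR adjusted p = 0.03) and KRT8, a keratin, rose in Viperin + Insulin against Viperin cells (0.13, edgeR adjusted p = 0.013), and each call was lost in 4 of the 12 fits that left out a library. Each was the 1 epithelial marker called there, beside 2.96% of all genes called lower and 2.17% called higher. The median log2 fold change of the 10 stromal and fibroblast markers was 0.21 in Viperin + Insulin against Insulin cells, beside 0.23 for the collagen IV chains. Of 8 endothelial markers, EMCN was at 0 in every library, PECAM1 averaged 0.48 CPM, and the summed level was 13.3 to 14.0 CPM in Viperin + Insulin cells, 11.02 to 13.97 CPM in Viperin cells, 10.2 to 11.5 CPM in Insulin cells and 10.6 to 11.6 CPM in Control cells. KDR, a receptor of vascular endothelial growth factor, was the 1 endothelial marker called, with a log2 fold change of 0.49 in Viperin against Control cells (edgeR adjusted p = 0.022) and of 0.40 in Viperin + Insulin against Insulin cells (edgeR adjusted p = 0.037). It was 1 of 7 endothelial markers tested in each comparison, beside 1.25% and 2.09% of all genes called higher. Its calls were lost in 3 and in 5 of the 12 fits that left out a library. The 6 pericyte and smooth muscle markers summed to 71.2 to 73.2 CPM in Viperin + Insulin cells, 70.5 to 71.1 CPM in Viperin cells, 66.7 to 72.6 CPM in Insulin cells and 68.2 to 73.8 CPM in Control cells, and the 6 leukocyte markers to at most 7.61 CPM in any library. The 8 epithelial markers summed to 2572 to 2683 CPM in Viperin + Insulin cells, 2440 to 2531 CPM in Viperin cells, 2673 to 2848 CPM in Insulin cells and 2576 to 2645 CPM in Control cells.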

How the data were processed

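Human mRNA-seq libraries of 12Z cells, 3 in each of 4 groups, were analysed. The authors used cutadapt, Trim Galore and FastQC on the reads, aligned to hg38 with STAR, and deposited raw counts per gene, unstranded and for each strand. No versions of these trimming and alignment tools are given in the sources used here. The reverse-strand counts were used, and lines for unmapped, multimapping and unassigned reads stayed out of library sizes. Gene names and lengths came from GENCODE release 44, which named 60357 of 60617 IDs. Promoter sequences came from RefSeq (GRCh38.p14).

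Genes averaging 1 count or more over the libraries, 23041 in all, entered TMM scaling. They were fitted as 4 group means over all 12 libraries with the robust quasi-likelihood test of edgeR 4.0.16 in R 4.3.3. p-values were adjusted over all genes by the Benjamini-Hochberg method, with calls at 0.05. The script was tested on simulated data. Ratios of counts were compared by an exact permutation test within plasmids. CPM used TMM-scaled library sizes, and TPM used exon lengths. SE is the log2 fold change over the root of the F statistic, and intervals are the log2 fold change with 1.96 SE on either side. Python 3.11.15 was used for tables and figures.

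The members and the 11 lists (150 genes) were chosen with earlier results of these data known. The rule for named genes took all members, up to 4 genes per list and comparison with the smallest p among those called, and the 3 most similar genes to each member. Further called list genes were chosen after seeing their values. Alternatives were RLE size factors, DESeq2 1.42.0, limma-voom (limma 3.58.1), other filters, unstranded counts, fewer groups in the fit, a stricter threshold, a replicate block and fits without single libraries. One list gene is not reported here, although counts over the lists include it.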

Additional observations from a re-analysis of the deposited data

How the results depend on the processing

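Viperin against Control, which carries no test of the members, was left out of the next counts, and the turns of COL4A3 there are given above. Of the other log2 fold changes of members under all alternatives, 501 kept their direction and their side of the threshold, 6 newly passed, 8 no longer passed and 7 turned direction, none of which was called. Those that turned did so without single libraries, which gave -0.020 to 0.11 for COL4A4 in Viperin + Insulin against Viperin and, for the difference of the insulin responses, -0.097 to 0.038 for COL4A1, -0.061 to 0.068 for COL4A2, -0.49 to 0.0021 for COL4A3 and -0.018 to 0.077 for COL4A6. The COL4A6:COL4A5 ratio, with no call for insulin, gave -0.028 to 0.0058 without single libraries. At the study's threshold of 0.001 the members called were 0 in Insulin against Control (2 at 0.05), 1 in Viperin + Insulin against Viperin (2 at 0.05) and 1 in Viperin + Insulin against Insulin (3 at 0.05), and the list genes called were 6 in Viperin against Control, 6 in Insulin against Control, 9 in Viperin + Insulin against Viperin and 7 in Viperin + Insulin against Insulin, against 20, 21, 15 and 26. With only the compared groups in the fit, 5 members passed in Viperin + Insulin against Insulin, and the list genes called were 13 in Viperin against Control, 25 in Viperin + Insulin against Viperin and 47 in Viperin + Insulin against Insulin. Over all genes the calls in these 3 comparisons moved in the same directions, to 252, 1551 and 1761 from 528, 1050 and 710. The cause was not tested. Without Control replicate 1 and Viperin replicate 3 together, 34 list genes passed in Viperin against Control, and the stromal markers called were 3 in Insulin against Control and 3 in Viperin + Insulin against Viperin (1 and 1 with all libraries), the cross-linking genes 4 in Viperin + Insulin against Insulin (2 with all libraries), and 1 protease or inhibitor gene and 1 epithelial marker were called there and 1 TGF-β gene in Viperin + Insulin against Viperin (0 with all libraries). Leaving out each library in turn gave 8 to 45 list genes in Viperin against Control, 11 to 22 in Insulin against Control, 12 to 19 in Viperin + Insulin against Viperin and 12 to 36 in Viperin + Insulin against Insulin, and members called of 2 to 3 in Insulin against Control, 1 to 2 in Viperin + Insulin against Viperin and 2 to 3 in Viperin + Insulin against Insulin. Over all genes, the calls in these fits ranged from 308 to 1102 in Viperin against Control and from 627 to 1360 in Insulin against Control. They ranged from 615 to 1393 in Viperin + Insulin against Viperin and from 278 to 1039 in Viperin + Insulin against Insulin. Of the list genes called, 4 of 20 in Viperin against Control, 9 of 21 in Insulin against Control, 11 of 15 in Viperin + Insulin against Viperin and 10 of 26 in Viperin + Insulin against Insulin kept their call in every such fit. The lowest count in Viperin against Control was without Control replicate 3 and the highest without Control replicate 1. Same-numbered libraries of different groups did not deviate together (r from -0.11 to 0.087 over 18 pairs, with 10 of 36 comparisons highest for the own number), so the numbers were not used as pairs. With the replicate block, 2, 2 and 3 members passed in the 3 comparisons above, COL4A5 kept a log2 fold change of -0.25 in Viperin + Insulin against Viperin, 21 list genes passed in Viperin against Control and 28 in Viperin + Insulin against Insulin, and no call of a member changed. For the difference of the insulin responses, 0 members passed in every fit, whereas over all genes 21 higher and 16 lower passed with no filter on low counts, 12 and 5 with the block, and 5 and 2 with unstranded counts. COL4A3 had 8 to 19 and COL4A4 98 to 194 counts a library.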

Other observations

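Each pair of collagen IV genes has a gene of the insulin receptor substrate family among its neighbours, which was noticed after the values were seen and is given with no explanation. IRS2, 362.4 kb from the COL4A1 and COL4A2 pair, had a log2 fold change of -0.26 (SE 0.05, edgeR adjusted p = 2.7e-04) in Insulin against Control cells and of -0.28 (SE 0.05, edgeR adjusted p = 5.4e-05) in Viperin + Insulin against Viperin cells. IRS1, 202.9 kb from the COL4A3 and COL4A4 pair, had -0.03 (SE 0.06, edgeR adjusted p = 0.89) and -0.07 (SE 0.06, edgeR adjusted p = 0.65). IRS4, 22.4 kb from the COL4A5 and COL4A6 pair, averaged 0.072 CPM, too low to compare. ATG4A, a protease of autophagosome formation, is the gene 0.9 kb from COL4A6. Its log2 fold change was -0.21 (SE 0.06, edgeR adjusted p = 0.048) in Viperin against Control cells. In Viperin + Insulin against Viperin cells it was 0.29 (SE 0.06, edgeR adjusted p = 7.3e-04). These values were opposite in sign to those of COL4A6, but both comparisons hold the same Viperin libraries, by which the family was chosen. ATG4A was not called in Insulin against Control cells (0.10, edgeR adjusted p = 0.40). Nor was it called in Viperin + Insulin against Insulin cells (-0.02, edgeR adjusted p = 0.92).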
